A study of Mus musculus with 8 samples.

Results

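The genes described here are the 6 Siglec receptors Siglecf, Siglec1, Siglece, Siglecg, Cd22 and Cd33, out of 32285 genes counted in immune cells of the mouse posterior eye. They were taken by gene symbol, and the set was chosen by the RNA level of Siglecf in neutrophils, which was higher after laser than in control in both genotypes. That contrast is therefore given as a description only, and nothing else is supported with it.

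Live CD45+ cells, the leukocytes, were sorted from posterior eye cups. Each cell gave its RNA and, through antibodies that carry a DNA barcode (antibody-derived tags, ADT), counts of 87 tags for surface proteins. The 4 groups were Nr4a1-/- laser, Nr4a1-/- control, WT laser and WT control, and each was 1 library of pooled eyes from female mice aged 10 to 12 weeks. Each laser library came from 11 to 12 mice taken on day 3 after 8 focal burns per eye, the laser-induced model of choroidal neovascularization, and each control library from 22 mice without laser, labelled sham. With 1 library per group the spread between animals is unknown, so no test between groups was possible, and every interval given is an exact 95% interval for counting error alone.

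The Nr4a1-/- mice carry the constitutive knockout allele of B6;129S2-Nr4a1tm1Jmi/J, which is not limited to a cell type, and WT mice were C57BL/6J. The sample labels name C57BL/6J for both genotypes, and strain background cannot be told apart from genotype. By its number the Nr4a1-/- control library belongs to a different library set from the rest, and what that set shares cannot be told apart from genotype among controls or from laser within Nr4a1-/-. RNA UMIs (unique molecular identifiers, counts of captured transcripts) ran between 7848548 in Nr4a1-/- laser and 38052948 in WT laser, with medians of 3676 and 7618 UMIs per kept cell. Nr4a1 itself, a nuclear receptor induced by activation, was at 54.9 and 90.7 CPM (UMIs of a gene scaled to the same total of RNA UMIs in each lineage and library) in the Nr4a1-/- laser and control libraries, against 278 and 310 CPM in the WT laser and control libraries, and no check was made of which part of the gene these tags come from. Of 11624 barcodes, 11223 were kept, and 9085 of these were assigned to a lineage by sets of marker genes. A total of 18 barcode sequences were found in 2 libraries, and without them the Siglecf ratio in neutrophils, laser over control, was 20.03 in Nr4a1-/- and 15.2 in WT.

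Siglecs are cell-surface lectins that bind sialic acid, the sugar that caps many glycans on a cell's own surface. Most carry inhibitory motifs in the cytoplasmic tail that recruit the phosphatases SHP-1 and SHP-2 (Ptpn6 and Ptpn11), and so dampen activating signals. Siglec-F is best known in mice from eosinophils and alveolar macrophages, sialoadhesin (Siglec1, CD169) from tissue macrophages, Siglec-E from neutrophils and monocytes, and CD22 and Siglec-G from B cells.

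In the GENCODE M21 annotation of GRCm38, 4 of the members lie within 308821 bases of chromosome 7. Siglecf is at chr7:43351341-43359531 and Siglecg at chr7:43408204-43418358, both on the plus strand. Cd33 is at chr7:43524216-43544428 and Siglece at chr7:43651070-43660161, both on the minus strand. Cd22 lies elsewhere on the same chromosome at chr7:30865402-30880342 and Siglec1 at chr2:131069220-131086765, both on the minus strand. Of the 6, Cd22 was the one overlapped by another annotated gene, the antisense Gm29439, over 601 bases.

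Promoters from RefSeq (GRCm38.p6, 250 bases before to 50 bases after the start) were held for 5 of the 6 members. Those of Siglecf, Cd33 and Siglece are shown because these are the members with most RNA in neutrophils. The Cd33 window lies inside the GENCODE span of Cd33 given above, so its RefSeq start is not the GENCODE start of the gene. Capitals mark GAGGAA, the core of PU.1 sites, on either strand (TTCCTC on the other strand).
Siglecf, chr7:43351091-43351390, plus strand: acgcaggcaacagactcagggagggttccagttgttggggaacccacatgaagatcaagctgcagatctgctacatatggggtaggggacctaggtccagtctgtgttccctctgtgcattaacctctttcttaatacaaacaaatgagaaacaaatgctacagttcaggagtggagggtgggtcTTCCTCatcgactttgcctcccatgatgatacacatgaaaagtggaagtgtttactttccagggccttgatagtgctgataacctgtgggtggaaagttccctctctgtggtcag
Cd33, chr7:43533122-43533421, minus strand: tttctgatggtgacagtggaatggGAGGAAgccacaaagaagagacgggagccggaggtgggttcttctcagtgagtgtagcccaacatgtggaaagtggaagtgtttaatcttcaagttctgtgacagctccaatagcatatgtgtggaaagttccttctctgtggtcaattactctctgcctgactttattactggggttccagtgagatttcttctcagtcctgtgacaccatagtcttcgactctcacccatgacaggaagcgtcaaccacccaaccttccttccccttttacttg
Siglece, chr7:43660112-43660411, minus strand: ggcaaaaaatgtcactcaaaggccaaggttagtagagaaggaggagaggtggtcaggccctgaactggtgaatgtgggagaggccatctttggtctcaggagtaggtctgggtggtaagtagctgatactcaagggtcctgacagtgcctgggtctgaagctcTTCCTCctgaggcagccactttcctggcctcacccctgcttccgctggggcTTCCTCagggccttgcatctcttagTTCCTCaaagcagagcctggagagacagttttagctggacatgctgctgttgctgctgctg

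The PU.1 core occurred once in the Siglecf window, 65 bases before the start, once in Cd33 and 3 times in Siglece, and it is in 28.3% of all 32851 promoters of this length. No match was found in these windows, on either strand, for TTGCNNAA of the C/EBP factors, which is in 10.8% of promoters. None was found for AGATAA of the other family searched, the zinc-finger factors of blood cells, which is in 11.2%. Only these exact letters were searched. Other letters that this family may bind were not counted, among them TGATAA, which the Siglecf window holds. The Siglecf and Cd33 windows shared the run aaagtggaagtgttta, 16 bases that occurred in 2 of the 32851 promoters. It begins 27 bases before the Siglecf start and 157 bases before the RefSeq start of Cd33, and the longest run shared by any other pair of members was 10 bases.

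Averaged over the 4 libraries, Siglecf, Siglece and Cd33 were highest in neutrophils, Siglec1 in macrophages, and Siglecg and Cd22 in B cells. For Siglecf this rank comes from the laser libraries, whose values chose the gene. In control, microglia stood above neutrophils with overlapping intervals, at 13.7 against 6.19 CPM in Nr4a1-/- and 13.2 against 9.33 CPM in WT. With clusters in place of marker gates, Cd33 was highest in microglia. The ranges of the libraries did not overlap those of the next lineage for Siglece, Siglecg and Cd22, and did for Siglecf and Cd33 (microglia) and for Siglec1 (Spp1 macrophages). Over all kept cells Cd33 had the most UMIs (4501), followed by Siglecg (2088), Cd22 (1547), Siglece (950), Siglec1 (486) and Siglecf (360). These are totals of 3' tags and are not compared between genes as levels.

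**Figure D1:**
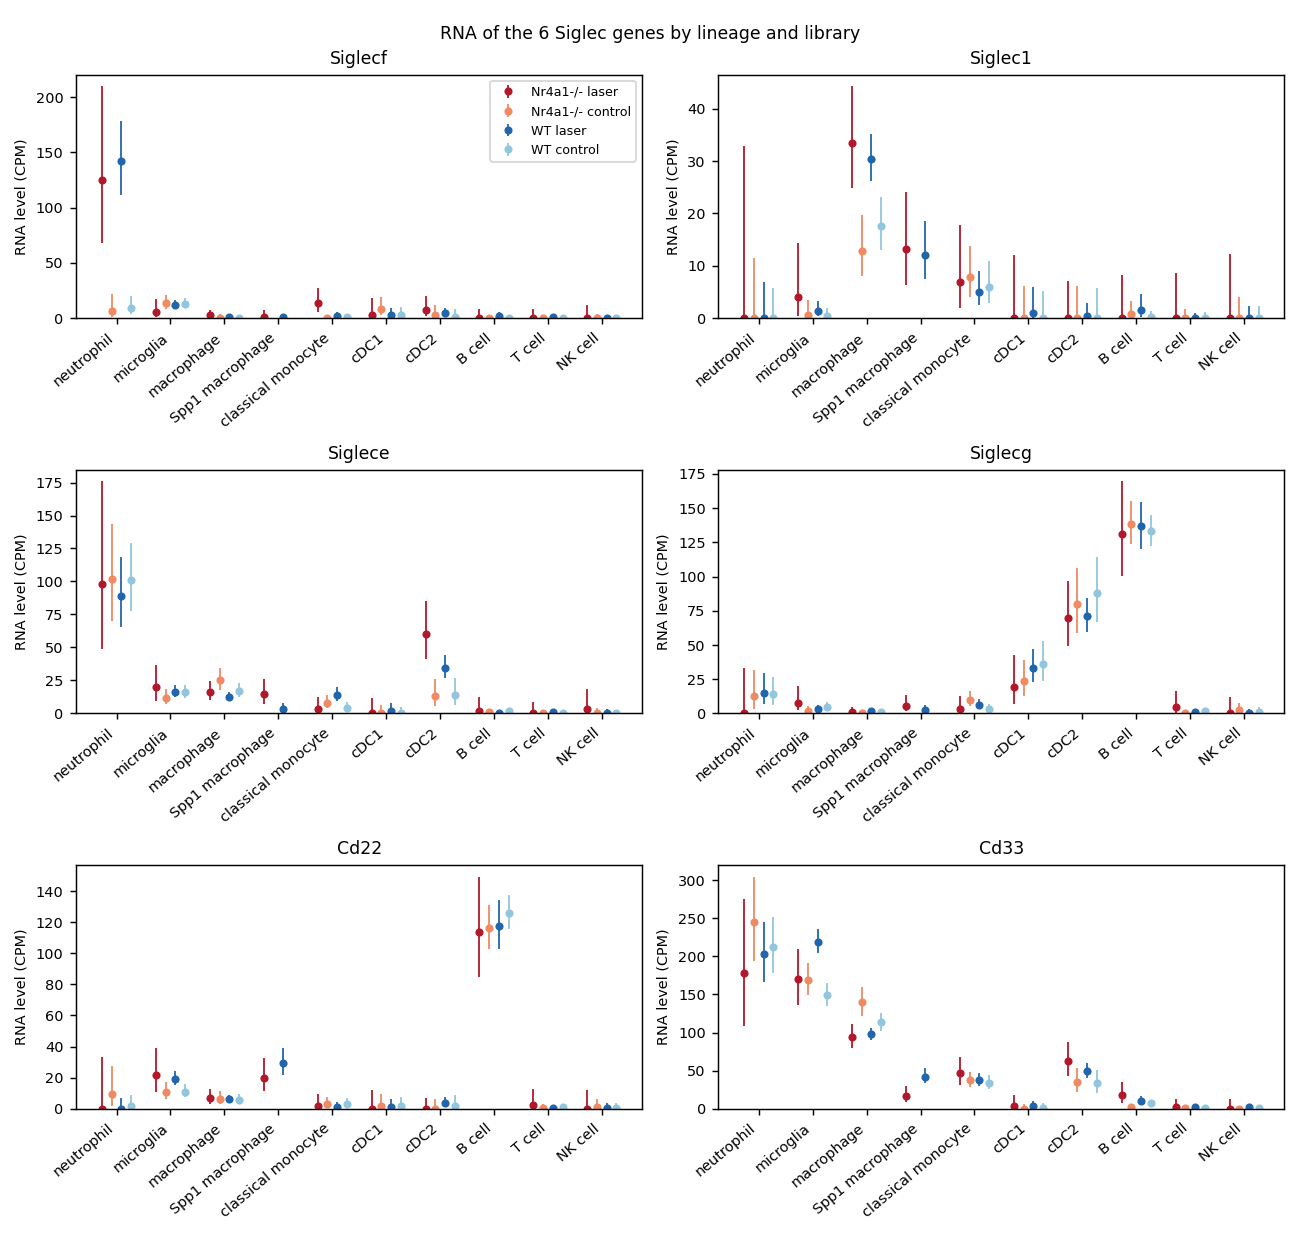
RNA level of each of the 6 Siglec genes in CPM (vertical axis) by marker-gated lineage (horizontal axis), with 1 point per library and exact 95% Poisson intervals. Libraries with fewer than 20 cells of a lineage are left out. Siglecf stands at 125 and 142 CPM in the neutrophils of the Nr4a1-/- and WT laser libraries, against 6.19 and 9.33 CPM in those of the control libraries, while Siglecg and Cd22 are highest in B cells in all 4 libraries.

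Neutrophils were the 398 cells gated on S100a8, S100a9, Retnlg, Csf3r, Cxcr2, Mmp9, G0s2 and Ly6g, of which 50 were from Nr4a1-/- laser, 87 from Nr4a1-/- control, 114 from WT laser and 147 from WT control, and 6 of the 10 genes that led the gate by fold were gate markers. Siglecf RNA had 14 UMIs in the Nr4a1-/- laser neutrophils (125 CPM, 68.4 to 210), against 2 UMIs in Nr4a1-/- control (6.19 CPM, 0.75 to 22.4). In WT it had 75 UMIs after laser (142 CPM, 112 to 178), against 6 UMIs in control (9.33 CPM, 3.42 to 20.3). The intervals of laser and control did not overlap in either genotype. The ratio of laser to control was 20.2 (4.64 to 183) in Nr4a1-/- and 15.2 (6.67 to 42.8) in WT, and these are the values that chose the gene. Between genotypes, a contrast that did not choose the gene, Nr4a1-/- over WT was 0.881 (0.46 to 1.57) among laser neutrophils and 0.664 (0.0655 to 3.71) among control neutrophils, and both intervals include 1.

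A Siglecf UMI was found in 12 of 50 Nr4a1-/- laser cells (24.0%), against 2 of 87 Nr4a1-/- control cells (2.30%), and in 35 of 114 WT laser cells (30.7%), against 6 of 147 WT control cells (4.08%). No neutrophil had more than 6 Siglecf UMIs. In T cells, which should lack the gene, a UMI was found in 0 of 148 Nr4a1-/- laser cells and 0 of 325 Nr4a1-/- control cells, which allows shares of up to 2.03% and 0.923%, and in 0.175% of WT laser and 0.366% of WT control cells, with a median of 5618 UMIs per T cell against 3472 per neutrophil. After thinning each cell to 1000 UMIs, the shares of neutrophils with a Siglecf UMI were 14.3% (7 of 49) in Nr4a1-/- laser and 0 of 86 in Nr4a1-/- control, which allows a share of up to 3.49%. In WT they were 11.8% (13 of 110) after laser, against 1.39% (2 of 144) in control.

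No cell met the gate for eosinophils, the granulocytes best known for Siglec-F, which consisted of Epx, Prg2, Prg3, Ear1, Ear6, Ccr3 and Il5ra. Epx, the eosinophil peroxidase, had 0 UMIs in every library, and 5 of the 7 markers were at 0 in the neutrophil gate. The summed level of the 7 was 17.9 CPM in Nr4a1-/- laser and 3.10 CPM in Nr4a1-/- control neutrophils, and 5.68 CPM in WT laser and 1.55 CPM in WT control neutrophils. Without the neutrophils that had an eosinophil marker UMI, the Siglecf ratio of laser to control was 21.9 in Nr4a1-/- and 17.8 in WT. The 8 neutrophil markers were themselves lower in the laser libraries, at 40260 against 95035 CPM in Nr4a1-/- and 83738 against 107314 CPM in WT, and their part in the Siglecf difference was not tested.

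The antibody tag CD170 is the name under which Siglec-F antibodies for mouse are sold, whereas the RefSeq gene table lists Cd170 as a synonym of Siglece. Which of the 2 proteins the tag bound was not tested here. In neutrophils, 5 or more CD170 counts were found in 11 of 50 Nr4a1-/- laser cells (interval 11.5% to 36.0%), against 10 of 87 Nr4a1-/- control cells (11.5%, 5.65% to 20.1%). In WT there were 55 of 114 cells after laser (48.2%, 38.8% to 57.8%), against 27 of 147 cells in control (18.4%, 12.5% to 25.6%). The WT intervals stood apart and the Nr4a1-/- intervals overlapped. The median was 1 CD170 count per cell in Nr4a1-/- laser and 1 in Nr4a1-/- control, and 4 in WT laser against 1 in WT control. In T cells, 5 or more counts were found in 0 of 148 Nr4a1-/- laser cells, which allows up to 2.03%, and in 0.308% of Nr4a1-/- control, 0.877% of WT laser and 0.549% of WT control cells.

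As a share of all ADT UMIs of the neutrophils, CD170 was 0.995% in Nr4a1-/- laser, against 0.0602% in Nr4a1-/- control, a ratio of 16.5 (12.8 to 21.3). In WT it was 0.802% after laser, against 0.206% in control, a ratio of 3.89 (3.46 to 4.40). A few cells with very high ADT totals (up to 153484 UMIs in 1 cell) weigh on these sums, and without cells above 2568 ADT UMIs the ratios were 3.95 in Nr4a1-/- and 5.29 in WT. The mean of CD170 counts per cell gave 1.65 in Nr4a1-/- and 3.14 in WT. In T cells the same share was 2.89 (1.95 to 4.23) times as high after laser in Nr4a1-/- and 1.94 (1.63 to 2.31) times in WT. Over the lineages other than neutrophils the ratio of laser to control was 0.938 to 3.61 in Nr4a1-/- and 0.871 to 2.75 in WT. In Nr4a1-/-, NK cells were at 3.56 (2.00 to 6.23) and classical monocytes at 3.61 (2.85 to 4.64), or 17.7 without the cells of highest ADT total, so the CD170 ratio of 3.95 in Nr4a1-/- neutrophils without such cells was not the highest of the lineages.

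Within the laser libraries, CD170 counts were higher in the neutrophils that had Siglecf RNA. The 12 Nr4a1-/- laser neutrophils with a Siglecf UMI had a median of 3 CD170 counts, against 1 in the 38 without. In WT laser, the 35 neutrophils with a Siglecf UMI had a median of 14 CD170 counts and 71.4% of them had 5 or more, against a median of 2 and 38.0% in the 79 without. Median Ly-6G, a neutrophil surface protein, was 20 counts in the WT laser cells with and 24 in those without a Siglecf UMI, and median CD193 (CCR3, an eosinophil receptor) was 0 and 1. Cells of 1 library are not replicates, and this is a description of those libraries.

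**Figure D2:**
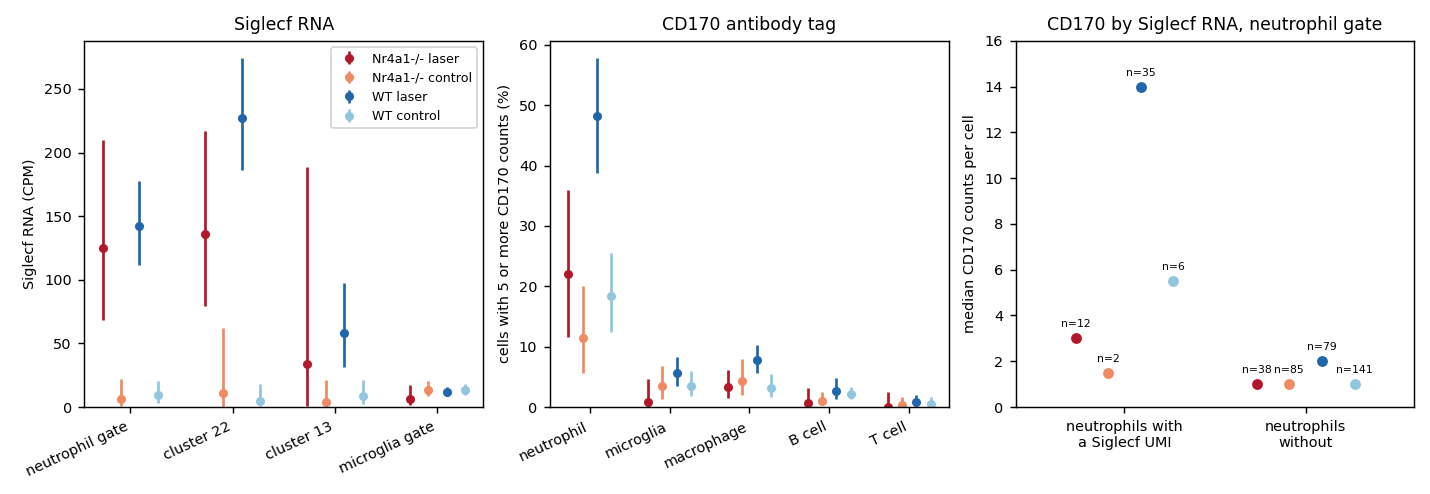
Left, Siglecf RNA in CPM with exact 95% Poisson intervals in the neutrophil gate, in the 2 neutrophil clusters and in microglia. Middle, percent of cells with 5 or more CD170 counts by lineage with exact binomial intervals. Right, median CD170 counts per cell in neutrophils with and without a Siglecf UMI, with the number of cells (n). In neutrophils WT laser is the highest point in each panel, and in the gate its Siglecf interval overlaps that of Nr4a1-/- laser.

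Clustering without the 6 members gave 2 neutrophil clusters, numbered 13 and 22. Cluster 13 had the higher S100a8, the calcium-binding protein abundant in circulating neutrophils, at 25751 and 28375 CPM in Nr4a1-/- laser and control and 51322 and 45268 CPM in WT laser and control. Cluster 22 had 5369 and 12247 CPM in Nr4a1-/- laser and control and 6773 and 10556 CPM in WT laser and control. In cluster 22, Siglecf was at 136 CPM in Nr4a1-/- laser (15 of 56 cells) against 11.1 CPM in Nr4a1-/- control (1 of 15 cells), and at 227 CPM in WT laser (45 of 107 cells) against 4.99 CPM in WT control (2 of 46 cells). In cluster 13 it was at 33.9 CPM in Nr4a1-/- laser against 3.85 CPM in Nr4a1-/- control, and at 58.2 CPM in WT laser against 8.26 CPM in WT control. In WT laser the interval of cluster 22 (186 to 274) lay above that of cluster 13 (31.8 to 97.6), and in Nr4a1-/- laser the intervals overlapped, with 1 UMI in the 17 cells of cluster 13. Csf1, the macrophage growth factor, was at 1213 and 156 CPM in cluster 22 of Nr4a1-/- laser and control, and at 1049 and 152 CPM in that of WT laser and control. The marker gate for neutrophils took 32 of the 56 cluster 22 cells of Nr4a1-/- laser and 8 of the 15 of Nr4a1-/- control. In WT it took 49 of the 107 after laser and 17 of the 46 in control. Of the others, 23, 7, 54 and 18 had no lineage in Nr4a1-/- laser, Nr4a1-/- control, WT laser and WT control. Any that remained were gated to other lineages, and whether cluster 22 holds like cells in each library was not tested.

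The genes of a list for neutrophils in inflamed tissue, chosen with earlier results of these data known, were set beside Siglecf. A gene was counted as higher or lower where its CPM differed at least 2-fold with at least 20 UMIs in the library with the higher CPM. By this rule 10 of 15 list genes with enough UMIs were higher after laser and 0 lower in Nr4a1-/- neutrophils, where 10.1% of all 1939 genes were higher and 15.5% lower. In WT neutrophils 11 of 17 were higher and 1, the checkpoint ligand Cd274, was lower, where 13.6% of all 4277 genes were higher and 5.21% lower. The median log2 ratio of the list was 1.18 in Nr4a1-/- and 1.34 in WT, against -0.23 and 0.07 over all genes. Ltc4s, the leukotriene C4 synthase, had 24 UMIs in Nr4a1-/- laser (214 CPM) against 2 in Nr4a1-/- control (6.19 CPM), and 75 in WT laser (142 CPM) against 3 in WT control (4.66 CPM). Its ratios were 34.6 (8.60 to 302) in Nr4a1-/- and 30.4 (10.02 to 151) in WT, and their intervals overlap those of Siglecf. Tnf, the inflammatory cytokine, was 10.5-fold higher after laser in Nr4a1-/- (7.33 to 15.2) and 2.62-fold in WT (2.13 to 3.24). The chemokine Ccl4 was 17.3-fold higher in Nr4a1-/- (10.1 to 31.5) and 3.21-fold in WT (2.59 to 3.99), and the chemokine Ccl3 14.1-fold and 4.08-fold. Cd274 is named for being the single lower gene.

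Granule proteins made during neutrophil maturation formed a second list of 8 genes. Of 2 with enough UMIs in Nr4a1-/-, Lcn2 and Mmp8 were both lower after laser, at 0.153 (0.0882 to 0.249) and 0.231 (0.0821 to 0.526). Of 5 in WT, Ltf was 4.33-fold higher (2.02 to 10.3) and Ngp 2.04-fold higher (1.28 to 3.30), and Camp was lower at 0.0487 (0.00119 to 0.298). Over all genes of the neutrophil gate 15.5% were lower in Nr4a1-/-, and 13.6% were higher and 5.21% lower in WT. The list had medians of -2.34 in Nr4a1-/- and -0.54 in WT on the log2 scale, and its genes went in both directions in WT.

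**Figure D3:**
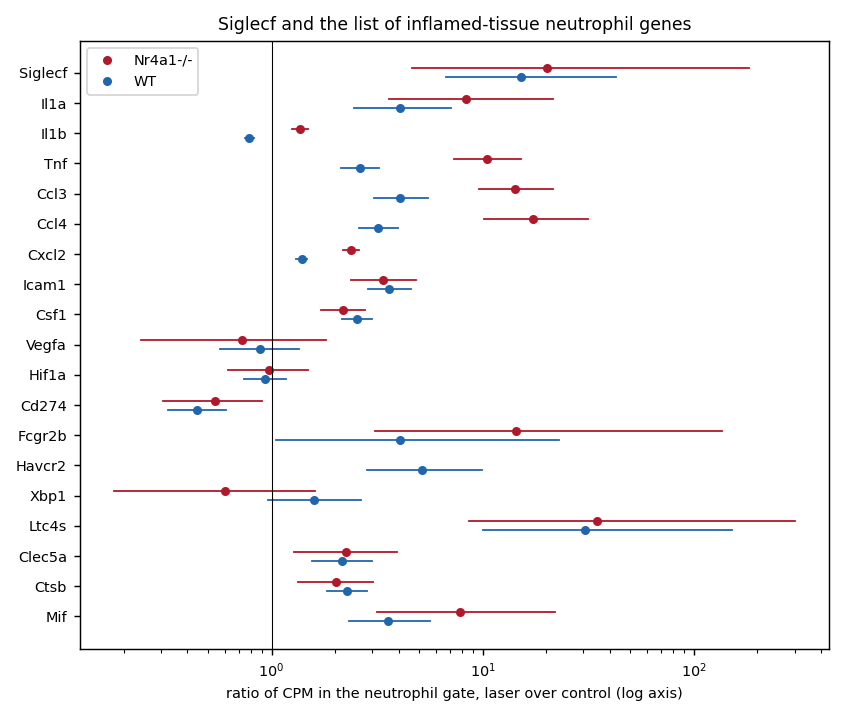
Ratio of CPM in the neutrophil gate, laser over control, on a log axis, for Siglecf and the listed genes of inflamed-tissue neutrophils (rows), with exact 95% intervals. Genes with fewer than 5 UMIs in both libraries of a genotype, or 0 in one of them, are left out. Ltc4s at 34.6 in Nr4a1-/- and 30.4 in WT lies beside Siglecf at 20.2 and 15.2, and Cd274 lies below 1 in both genotypes.

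Among partners that carry Siglec signals, 1 of 7 genes with enough UMIs was higher and 1 lower in Nr4a1-/- neutrophils after laser, and 0 of 7 passed in WT. Over all genes 10.1% were higher and 15.5% lower in Nr4a1-/- neutrophils, so the list counts lie near those shares. In WT 13.6% of all genes were higher and 5.21% lower. The list medians were -0.49 in Nr4a1-/- and -0.07 in WT on the log2 scale. Ptpn6 (SHP-1) was at 268 CPM in Nr4a1-/- laser against 204 CPM in Nr4a1-/- control, and at 250 CPM in WT laser against 197 CPM in WT control. Hcst (DAP10), the lower one, had a ratio of 0.424 (0.195 to 0.829) in Nr4a1-/- and 0.807 (0.637 to 1.02) in WT. Cd24a, whose product is a known ligand of Siglec-G, was 2.03-fold higher after laser in Nr4a1-/- (1.30 to 3.13) and 1.91-fold in WT (1.503 to 2.44), just under the 2-fold rule. Among genes that make or remove sialic acid, St3gal6, a sialyltransferase, was lower by this rule after laser in both genotypes, with ratios of 0.429 (0.205 to 0.813) in Nr4a1-/- and 0.401 (0.287 to 0.551) in WT. It had 98.3 CPM in Nr4a1-/- laser against 229 CPM in Nr4a1-/- control, and 98.4 CPM in WT laser against 246 CPM in WT control, the 1 gene of 5 tested in Nr4a1-/- and of 8 tested in WT that passed the rule. Over all genes 15.5% were lower in Nr4a1-/- neutrophils and 5.21% in WT. The list medians were -0.22 in Nr4a1-/- and 0.06 in WT.

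Outside neutrophils, the mean Siglecf level over the 4 libraries was highest in microglia. It stood at 5.94 CPM in Nr4a1-/- laser (3 UMIs, 1.23 to 17.4) against 13.7 CPM in Nr4a1-/- control (22 UMIs, 8.61 to 20.8), and at 11.9 CPM in WT laser (42 UMIs) against 13.2 CPM in WT control (36 UMIs). The Nr4a1-/- ratio of 0.432 passed the 2-fold rule but its interval (0.0828 to 1.44) includes 1. Thinned to 1000 UMIs per cell, the WT ratio was 0.556, against 0.900 unthinned. It came from 3 of 371 cells with a UMI after laser against 5 of 344 in control, shares whose intervals overlap. The control neutrophils, at 6.19 and 9.33 CPM in Nr4a1-/- and WT, had intervals that overlap those of the microglia of the same library. In macrophages it had 4, 1, 5 and 0 UMIs in Nr4a1-/- laser, Nr4a1-/- control, WT laser and WT control. Classical monocytes of Nr4a1-/- laser had 8 Siglecf UMIs in 4 of 99 cells (13.9 CPM), against 0 of 145 Nr4a1-/- control cells, which allows a share of up to 2.07%.

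Siglece and Cd33 were the other members with RNA in neutrophils, and neither passed the 2-fold rule there. Siglece was at 98.3 CPM in Nr4a1-/- laser against 102 CPM in Nr4a1-/- control, and at 89.0 CPM in WT laser against 101 CPM in WT control. Cd33, in mouse a myeloid Siglec, was at 179 CPM in Nr4a1-/- laser against 245 CPM in Nr4a1-/- control, and at 203 CPM in WT laser against 213 CPM in WT control. The ratios of laser to control were 0.962 (0.439 to 1.95) and 0.881 (0.592 to 1.30) for Siglece in Nr4a1-/- and WT, and 0.731 (0.424 to 1.21) and 0.951 (0.732 to 1.23) for Cd33. Every one of these intervals includes 1, but thinning to 1000 UMIs per cell gave 0.539 for Siglece in WT, outside its interval, from 7 cells with a UMI after laser against 15 in control. Siglecg had 0, 4, 8 and 9 UMIs in neutrophils of Nr4a1-/- laser, Nr4a1-/- control, WT laser and WT control, where the 7 B cell markers summed to 98.3, 372, 131 and 392 CPM. Siglec1 had 0 UMIs in the neutrophils of all 4 libraries, which allows up to 26.8, 9.29, 5.68 and 4.66 CPM in Nr4a1-/- laser, Nr4a1-/- control, WT laser and WT control.

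Siglece was higher after laser in cDC2, the conventional dendritic cells gated on Cd209a, Flt3, Mgl2, Clec10a and H2-DMb2. It had 31 UMIs in Nr4a1-/- laser (60.2 CPM, 40.9 to 85.5) against 8 in Nr4a1-/- control (13.3 CPM, 5.76 to 26.3), a ratio of 4.51 (2.03 to 11.4). In WT it had 66 UMIs after laser (34.6 CPM, 26.7 to 44.0) against 9 in control (14.2 CPM, 6.48 to 26.9), a ratio of 2.44 (1.21 to 5.57). Laser stood above control in both genotypes, and Siglece was the 1 member of 3 with enough UMIs that passed in each, where 6.05% of 4328 genes in Nr4a1-/- and 8.59% of 6078 genes in WT were higher. The 8 neutrophil markers summed to 7.77 and 15.02 CPM in the cDC2 of Nr4a1-/- laser and control, and to 16.8 and 55.1 CPM in those of WT laser and control, and so were lower in the laser libraries. Thinned to 1000 UMIs per cell, the Nr4a1-/- ratio was 1.44, from 4 cells with a UMI after laser against 2 in control, and in WT 5 of 129 cells had one after laser against 0 of 53 in control.

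In classical monocytes, the Ly6c2-high blood monocytes that enter inflamed tissue, Siglece had 31 UMIs in WT laser (14.2 CPM) against 7 in WT control (4.13 CPM), a ratio of 3.45 (1.49 to 9.27), where 3.42% of 7663 genes were higher. In Nr4a1-/- it had 2 UMIs after laser (3.48 CPM) against 12 in control (7.85 CPM), which is under the 20 UMIs needed. The Nr4a1-/- ratio of 0.444 lay on the other side of 1 from that of WT, but its interval (0.0482 to 1.99) includes 1. With each cell thinned as above, a Siglece UMI was found in 2 of 99 Nr4a1-/- laser cells against 1 of 145 control cells. In WT it was found in 3 of 186 laser cells against 0 of 172 control cells. Laser then stood above control in both genotypes, from few cells and with overlapping intervals. The difference between genotypes was not tested. Macrophage markers summed to 697 and 91.6 CPM in the Nr4a1-/- laser and control monocytes and to 655 and 198 CPM in the WT laser and control monocytes. They were higher after laser in both genotypes, and their part in the Siglece value was not tested.

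Siglec1, the sialoadhesin of tissue macrophages, was higher in macrophages after laser. It had 49 UMIs in Nr4a1-/- laser (33.5 CPM, 24.8 to 44.3) against 21 in Nr4a1-/- control (12.9 CPM, 7.97 to 19.7), and 189 in WT laser (30.5 CPM, 26.3 to 35.1) against 51 in WT control (17.6 CPM, 13.1 to 23.2). The ratio was 2.60 (1.53 to 4.57) in Nr4a1-/-, where 3.21% of 7634 genes were higher. In WT it was 1.73 (1.26 to 2.41), below the 2-fold rule with an interval above 1. With each cell thinned as above, the WT ratio fell to 1.24, below its unthinned interval. A UMI was then found in 16 of 541 WT laser cells against 9 of 378 WT control cells, shares whose intervals overlap. In Nr4a1-/- it was found in 10 of 269 laser cells against 0 of 208 control cells, so no thinned ratio could be computed. Macrophages were gated on C1qa, C1qb, C1qc, Mrc1, Folr2, Lyve1, Cd163, Pf4 and Ms4a7, and these markers summed to 14136 and 15919 CPM in Nr4a1-/- laser and control and to 13366 and 14647 CPM in WT laser and control. Siglec1 followed in Spp1 macrophages, which were nearly confined to the laser libraries (91 and 122 cells in Nr4a1-/- and WT laser, 3 and 9 in the controls), at 13.2 CPM in Nr4a1-/- laser and 12.1 CPM in WT laser. Classical monocytes were at 5.05 to 7.85 CPM over the 4 libraries, below every macrophage value.

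The CD169 tag, for the Siglec1 protein, went the other way from the RNA. In macrophages 5 or more CD169 counts were found in 8.63% of Nr4a1-/- laser cells (5.61 to 12.6) against 24.3% of Nr4a1-/- control cells (18.6 to 30.7), and in 15.2% of WT laser cells (12.2 to 18.5) against 22.6% of WT control cells (18.5 to 27.1). The shares were lower after laser in both genotypes. As a share of ADT UMIs the ratio was 0.555 in Nr4a1-/- and 0.789 in WT, and 0.879 and 0.896 without the cells of highest ADT total. The median ADT total per kept cell was 132 in Nr4a1-/- laser and 248 in Nr4a1-/- control, and 325 in WT laser and 284 in WT control. In neutrophils alone it was lower after laser in both genotypes, at 183.5 against 537 in Nr4a1-/- and 641 against 1029 in WT. The part of these totals in the CD169 and CD170 shares was not tested. In T cells the CD169 shares were at most 0.366%.

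B cells carried Siglecg and Cd22, the inhibitory co-receptors of B cell receptor signaling, at levels whose intervals overlap in all libraries. Siglecg was at 132 CPM in Nr4a1-/- laser against 139 CPM in Nr4a1-/- control, and at 137 CPM in WT laser against 133 CPM in WT control. Cd22 was at 114 CPM in Nr4a1-/- laser against 116 CPM in Nr4a1-/- control, and at 118 CPM in WT laser against 126 CPM in WT control. Ratios of laser to control were 0.948 (0.705 to 1.26) and 1.02 (0.88 to 1.19) for Siglecg in Nr4a1-/- and WT, and 0.977 (0.709 to 1.32) and 0.932 (0.794 to 1.09) for Cd22. All 4 intervals lie within 2-fold. B cells held 68.3% of all Cd22 UMIs and 56.5% of all Siglecg UMIs. Siglecg was next highest in cDC2, at 69.9 to 88.2 CPM, a range below that of B cells. Migratory DC, with at least 20 cells in WT laser alone, were at 75.5 CPM there, within the cDC2 range, and cDC1 were at 19.6 to 36.1 CPM.

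Cd22 was also present in microglia and in Spp1 macrophages, at a lower level. In microglia it was at 21.8 CPM in Nr4a1-/- laser (11 UMIs) against 10.6 CPM in Nr4a1-/- control (17 UMIs), and at 19.3 CPM in WT laser (68 UMIs) against 11.02 CPM in WT control (30 UMIs). The WT ratio was 1.75 (1.12 to 2.78) and the Nr4a1-/- ratio 2.05 (0.868 to 4.64), with under 20 UMIs in the Nr4a1-/- laser library. Thinned to 1000 UMIs per cell, the WT ratio was 3.71, from 8 cells with a UMI after laser against 2 in control. B cell markers summed to 228 and 212 CPM in the microglia of Nr4a1-/- laser and control and to 160 and 167 CPM in those of WT laser and control. In macrophages, where they summed to 209 to 269 CPM, Cd22 was at 5.87 to 6.84 CPM in all 4 libraries.

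Cd33 was at 170 CPM in microglia of Nr4a1-/- laser against 169 CPM in Nr4a1-/- control, and at 219 CPM in WT laser against 149 CPM in WT control. The WT ratio was 1.47 (1.30 to 1.66) and the Nr4a1-/- ratio 1.01 (0.78 to 1.29). In macrophages it was lower after laser, at 94.4 against 140 CPM in Nr4a1-/- (ratio 0.675, 0.543 to 0.838) and at 97.9 against 113 CPM in WT (ratio 0.864, 0.754 to 0.991). None of the unthinned ratios reached 2-fold. Cd33 in neutrophils and in microglia overlapped, with ranges of 179 to 245 and 149 to 219 CPM over the libraries, and macrophages lay below both at 94.4 to 140 CPM.

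The 2-fold rule was applied to every pair of a member and a lineage with enough UMIs and at least 20 cells in both libraries. In Nr4a1-/-, 2 of 13 pairs were higher after laser (Siglec1 in macrophages and Siglece in cDC2) and 1 was lower (Siglecf in microglia, where 8.47% of 6095 genes were lower). Over all genes 3.27% of pairs were higher and 7.12% lower. In WT, 3 of 21 pairs were higher (Siglecf in neutrophils, Siglece in classical monocytes and in cDC2) and 0 were lower, where 4.63% of all pairs were higher and 2.98% lower. The first of these chose the gene. Between genotypes, 0 of 17 pairs were higher and 3 were lower in Nr4a1-/- than in WT after laser, where 1.13% of all pairs were higher and 8.09% lower. In control 0 of 16 were higher and 1 was lower, where 1.24% of all pairs were higher and 3.57% lower.

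The 3 lower pairs after laser were Cd33 in Spp1 macrophages, Siglece in classical monocytes and Siglecf in microglia. Cd33 in Spp1 macrophages had 13 UMIs in Nr4a1-/- laser (17.1 CPM) against 73 in WT laser (42.2 CPM), a ratio of 0.405 (0.206 to 0.737), where 4.33% of 6583 genes were lower. Siglece in classical monocytes was 0.245 (0.0284 to 0.961), where 7.13% of 6268 genes were lower, and turned to 1.25 after thinning. Siglecf in microglia was 0.499 with an interval (0.099 to 1.56) that includes 1, where 11.5% of 7317 genes were lower. In control, Cd33 in B cells had 4 UMIs in Nr4a1-/- (1.79 CPM) against 33 in WT (7.98 CPM), a ratio of 0.224 (0.0577 to 0.631) where 3.88% of 9348 genes were lower, and this turned to 1.18 with clusters in place of gates. The median depth was 3676 UMIs per cell in Nr4a1-/- laser against 7618 in WT laser, and its part in these ratios was not tested.

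**Figure D4:**
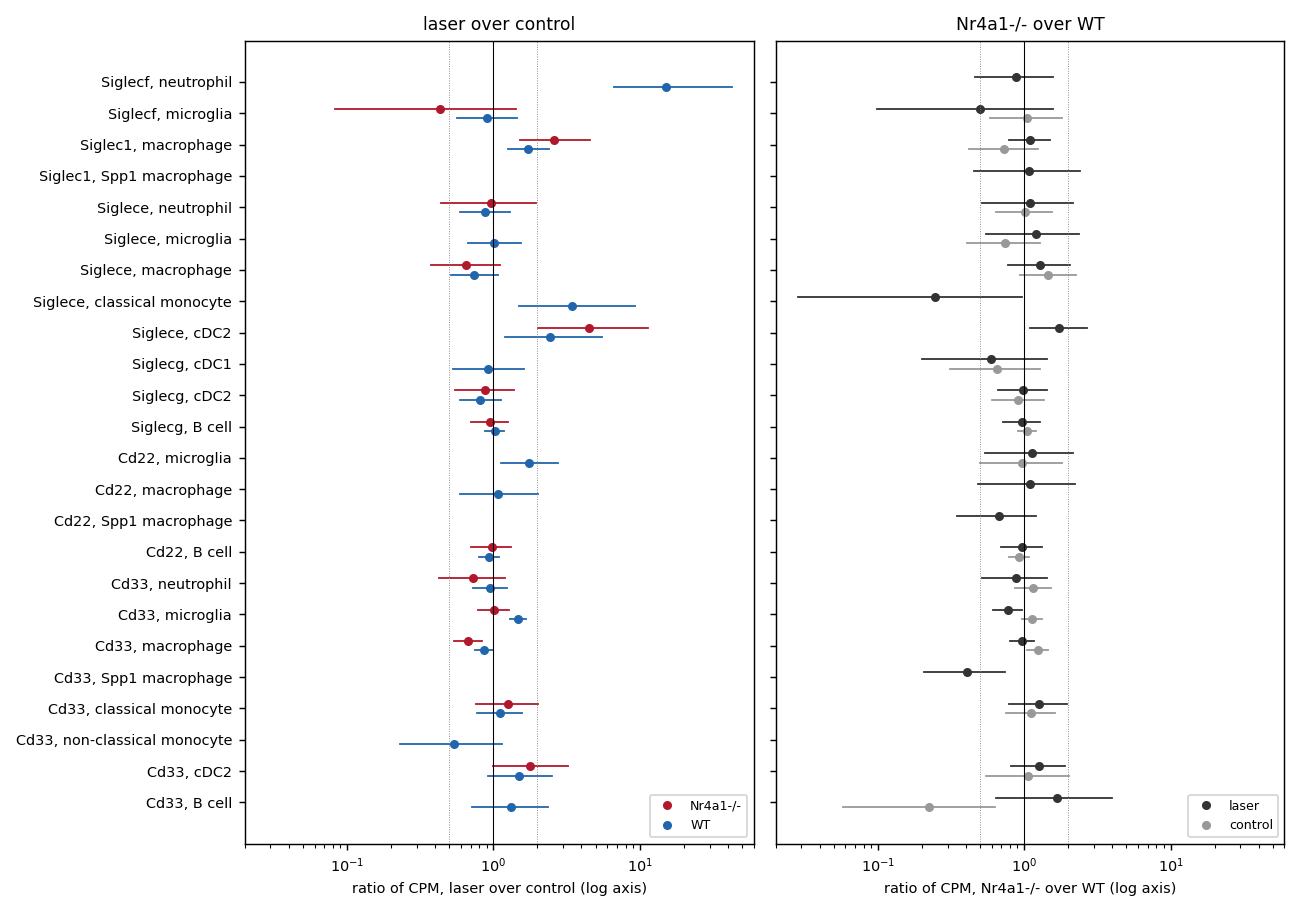
Ratios of CPM for each member and lineage with at least 20 UMIs in either library, a looser limit than that of the 2-fold rule. Axes are log, with exact 95% intervals, laser over control at left and Nr4a1-/- over WT at right. Dotted lines mark 2-fold. Siglecf in WT neutrophils at 15.2 is the ratio that chose the gene, and in B cells Siglecg and Cd22 lie between 0.922 and 1.04 in every contrast.

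Outside the 6 members the list of the family held 3 genes, Siglech, Mag and Siglec15, of which Siglec15 had at most 2 UMIs in any library. Siglech, whose product signals through Tyrobp (DAP12), had its highest mean RNA level in microglia among the 12 lineages described. The 18 cells gated as plasmacytoid DC were not among those lineages. Siglech was at 394 CPM in microglia of Nr4a1-/- laser against 684 CPM in Nr4a1-/- control, and at 531 CPM in WT laser against 555 CPM in WT control. In macrophages it was 0.224 (0.152 to 0.322) times as high after laser in Nr4a1-/- and 0.394 (0.324 to 0.479) times in WT, where 5.96% of 7634 and 5.61% of 9811 genes were lower. In RNA, Siglec1 and Siglech thus lay on opposite sides of 1 in the same macrophages. The SiglecH tag in these macrophages went the other way from Siglech RNA. Its share of ADT UMIs, laser over control, was 1.22 (1.08 to 1.37) in Nr4a1-/- and 1.35 (1.26 to 1.45) in WT. Without the cells of highest ADT total these ratios were 1.99 and 1.59. In T cells the SiglecH tag ratio was 1.78 (1.41 to 2.24) in Nr4a1-/- and 1.33 (1.21 to 1.47) in WT. Siglech was higher after laser by the 2-fold rule in WT classical monocytes (35 against 9 UMIs, ratio 3.03, 1.43 to 7.16), where 3.42% of 7663 genes were higher. It also passed in WT cDC2 (25 against 3 UMIs, ratio 2.77), where 8.59% of 6078 genes were higher, but the interval (0.846 to 14.3) includes 1. Mag, the myelin-associated glycoprotein, had ratios of 0.822 (0.302 to 1.93) in Nr4a1-/- microglia, 0.752 (0.468 to 1.21) in WT microglia and 1.46 (0.638 to 3.74) in WT macrophages, none of them past the rule. In the WT cells with no lineage Mag was lower after laser by the rule (17 against 23 UMIs, ratio 0.347, 0.174 to 0.679). The share of all genes that were lower was not counted for those cells.

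The genes whose levels were most like each member were sought over 36 units, each 1 lineage in 1 library with at least 50 cells, by Pearson's r of log2(CPM + 1). Units share libraries and depth, genes had at least 200 UMIs, and the r is a description. For Siglecf these were Gm29282 (0.80), Chil1 (0.79) and Sycp2 (0.77), and for Siglece Cass4 (0.92), Neat1 (0.91) and Gm34455 (0.89). Cd33 was most like Nlrp3 (0.96), the inflammasome sensor, Zswim4 (0.94) and Mcl1 (0.93). Siglec1 was most like Cfb (0.87), complement factor B, and Apoe (0.86) and Tfec (0.85). Siglecg was most like H2-DMb2 (0.94), which is also a cDC2 gate gene, and H2-Ob and H2-Oa (0.87 and 0.86), which regulate antigen loading in B cells. Cd22 was most like Gga2 (0.83), Pik3c2b (0.82) and Gad1 (0.81).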

How the data were processed

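The deposited values were UMI counts that the authors made with Cell Ranger 7.0.1 against mm10, per their processing notes, for 32285 genes and 87 ADTs in each barcode, with no normalization. The labels name the v2 kit and the study's methods 3' v3. Titles were used to map the ADT libraries, since the other label fields of all 4 give 1 genotype and 1 treatment. A barcode was kept if it had 200 to 5000 genes and no more than 15% mitochondrial UMIs. That upper limit was the 1 step against doublets, and no doublet caller was run. A cell was given the lineage, of 18, whose markers had the highest mean log2 level, scaled to the 90th percentile, if at least 3 markers were detected and it led the next lineage by 0.1. Of the 398 neutrophils, 21 lay within 0.05 of that limit, and 2138 kept cells had no lineage. Because lineages were rebuilt here, they need not match the study's cell types.

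Counts were summed per lineage and library and divided by all RNA UMIs (CPM). Intervals were exact at 95% (Poisson for CPM, Clopper-Pearson for shares, conditional binomial for ratios) and cover counting error only, and 0 UMIs allow up to 3. The minimum was 20 cells per lineage and library. Clusters came from scanpy 1.11.5 (Leiden, 2000 variable genes without the members, 30 dimensions, resolution 1.5). Interval and call rules were tested on simulated counts. Python 3.11.15, numpy 2.4.6, scipy 1.17.1 and pandas 2.3.3 were used. Alternatives were a mitochondrial limit of 10%, no upper gene limit, a lead of 0.3, clusters, thinning to 1000 UMIs, a minimum of 10 UMIs and other CD170 scalings. The members, markers and 5 gene lists were chosen with earlier results of these data known. Genes named are the members, gate markers, the genes of largest ratio in a list (at most 4), and the 3 genes most like each member. Cd274, Hcst, St3gal6, Lcn2, Mmp8, Camp and Csf1, and Tnf ahead of Fcgr2b, were named after their values were seen. Promoter windows of 5 of 6 members were held.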

Additional observations from a re-analysis of the deposited data

Results flagged for a closer look

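A signal outside the lineages was found in the kept cells that no marker set claimed. There, Siglecf had 7 UMIs in Nr4a1-/- laser (3.54 CPM) against 3 in Nr4a1-/- control (1.98 CPM), and 74 in WT laser (10.5 CPM, 8.24 to 13.2) against 4 in WT control (1.21 CPM, 0.329 to 3.09), a WT ratio of 8.69 (3.25 to 32.7). Of the 74 WT laser UMIs, 44 were in cells of the neutrophil clusters and 12 in those of the cDC2 clusters. Siglec1 in the same cells had 10 UMIs in Nr4a1-/- laser against 1 in Nr4a1-/- control, and 68 in WT laser (9.64 CPM) against 8 in WT control (2.41 CPM), a WT ratio of 3.99 (1.92 to 9.62). Which cells without a lineage are the same types in the libraries was not tested.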

How the results depend on the processing

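No paired analysis was possible because each group is 1 library and the labels give no replicate numbers, and no library could be left out. The Siglecf ratio in neutrophils stayed within its main interval under every alternative run in both genotypes. The thinned ratio in Nr4a1-/- could not be computed, since control had 0 UMIs. The CD170 ratio stayed above 1 under each but its size moved. In Nr4a1-/- it was 16.5, and 10.5 with the stricter lead, 5.64 against CD45 ADT, 5.71 divided by the T cell ratio, 3.95 without the cells of highest ADT total and 1.65 as mean counts per cell. In WT it was 3.89, and 2.46, 5.86, 2.00, 5.29 and 3.14 under the same alternatives, and 9.43 with clusters. The last 2 scalings, and leaving out barcodes found in 2 libraries, were chosen after seeing the data. Laser calls were 6 in all, from 13 pairs tested in Nr4a1-/- and 21 in WT. They were 2 with the stricter lead, 0 thinned and 11 with a minimum of 10 UMIs. Genotype calls were 4, from 17 pairs tested after laser and 16 in control, and were 2 with clusters, 0 thinned and 7 with 10 UMIs. Under the alternatives neither the pairs tested nor the share of all genes called was counted, so these counts are not read as results about the members. Thinning leaves few UMIs above the minimum. The leading lineage of 5 members was the same under each alternative, and that of Cd33 was microglia, not neutrophils, with clusters. For Siglecf the leading lineage comes from the laser neutrophils that chose the gene. Of 260 values for 44 single ratios, 241 stayed within their interval, 17 moved and 2 reversed: Siglece in classical monocytes after laser, Nr4a1-/- over WT, was 1.25 thinned, and Cd33 in control B cells, Nr4a1-/- over WT, was 1.18 with clusters. The causes were not tested. Depth limits the Nr4a1-/- laser values most, with 50 neutrophils and 14 Siglecf UMIs.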
